A study of Mus musculus with 2 samples.

Results

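The genes described here encode glucose-6-phosphatase, phosphoenolpyruvate carboxykinase (PEPCK) and pyruvate carboxylase, with the glucose 6-phosphate transporter that works with the first and a coactivator that drives the pathway in liver. They were G6pc, G6pc2, G6pc3, Slc37a4, Pcx, Pck1, Pck2 and Ppargc1a. Every probe set that the platform annotation pairs with 1 of these genes and no other was taken, which gave 15 probe sets for the 8 genes, out of 34945 probe sets with a single gene and 45037 on the array.

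The study compared islets of mice with a beta cell-specific Zbtb20 knockout with islets of wildtype littermates, to find genes that depend on the zinc finger transcription factor ZBTB20 in beta cells. Each genotype was measured on 1 Affymetrix array. The age of the mice was 2 to 3 months and their strain background was mixed, in both groups. The promoter driving the recombinase, the part of Zbtb20 that was removed and the number of animals behind an array are not given in the sources used here. Islets were picked by hand after collagenase digestion, kept in culture overnight and frozen, so both groups share that treatment.

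Values are linear MAS5 signals. They ran from 0.1 to 14244.3 on the knockout-labelled array and from 0.1 to 15324.3 on the control array. The floor used below was each array's median, 21.7 in knockout-labelled and 21.6 in control islets. A probe set under it on both arrays was given no ratio, and one under it on 1 array was given a bound. A design of 1 array per group allows neither a p-value nor a standard error, and a ratio sets 1 RNA preparation against another. The targeted gene did not settle the genotype label: of 9 Zbtb20 probe sets, 5 were lower and 4 higher in knockout-labelled islets, with log2 ratios from -0.87 to 0.54. The brightest gave 204.6 in knockout-labelled and 237.5 in control islets. The defining hormone genes of islets were bright on both arrays, with Ins2 (insulin) at 7785.8 in knockout-labelled and 9194.3 in control islets and Gcg (glucagon) at 10291.5 in knockout-labelled and 11214.6 in control islets.

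Gluconeogenesis makes glucose from pyruvate and amino acids. Pyruvate carboxylase turns pyruvate into oxaloacetate in mitochondria, PEPCK turns oxaloacetate into phosphoenolpyruvate, fructose-1,6-bisphosphatase acts further up, and glucose-6-phosphatase, inside the endoplasmic reticulum, releases free glucose. Liver and kidney run the whole route. Beta cells are not known as glucose producers, but they use parts of it: pyruvate carboxylase refills and cycles citric acid cycle intermediates that amplify insulin secretion, mitochondrial PEPCK is tied to mitochondrial GTP, and an islet form of glucose-6-phosphatase opposes glucokinase, the glucose sensor.

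Of the 6 genes with a ratio, Ppargc1a alone differed by 2-fold or more, and it was lower in knockout-labelled islets. Its signals were weak, and the call did not hold under every setting. The enzyme and transporter genes that could be measured, G6pc2, G6pc3, Slc37a4, Pcx and Pck2, had log2 ratios between -0.28 and 0.26 in their brightest probe sets. G6pc and Pck1, the forms that liver uses, were under the floor on both arrays in all their probe sets. In numbers, 11 of the 15 probe sets had a ratio, 7 of them above the floor on both arrays and 4 above it in control islets only. No member probe set was 2-fold higher, where the share over 21257 single-gene probe sets with a ratio was 1.88%, and 2 were 2-fold lower, both of Ppargc1a, where the share was 1.29%. By gene, with the brightest probe set standing for a gene, 0 of 6 were higher (1.82% of 11802 genes) and 1 of 6 was lower (1.44%). The median log2 ratio was -0.10 over the 6 genes and 0.07 over the 5 without Ppargc1a, against 0.0 over all genes.

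**Figure D1:**
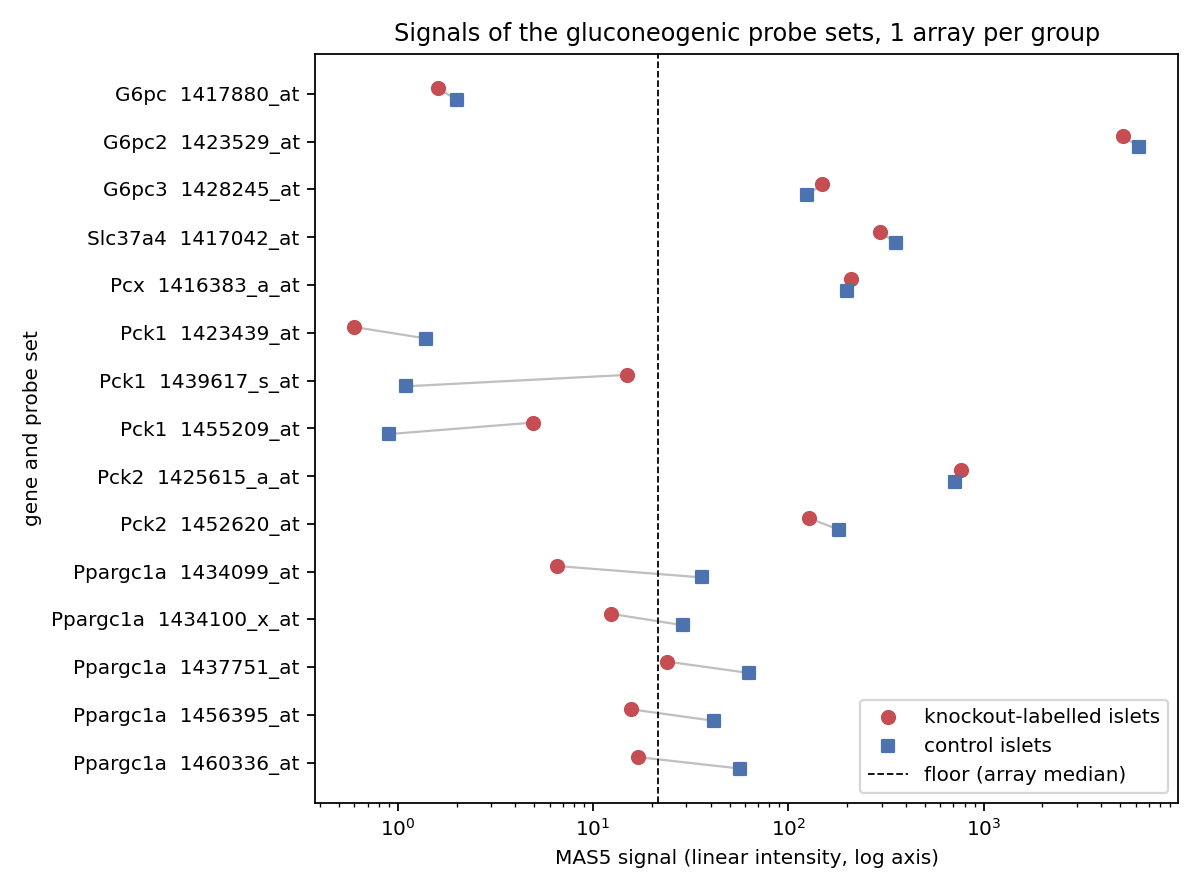
MAS5 signal (horizontal log axis, linear intensity units) of each of the 15 member probe sets in knockout-labelled islets (circles) and control islets (squares), 1 array each, with the floor as a dashed line. The 5 Ppargc1a probe sets lie above the floor in control islets, between 28.9 and 63.0, and between 6.5 and 23.8 in knockout-labelled islets, whereas the pairs of points for G6pc2, G6pc3, Slc37a4, Pcx and Pck2 lie close together.

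Glucose-6-phosphatase has 3 catalytic subunit genes. G6pc encodes the liver and kidney enzyme, G6pc2 the islet form and G6pc3 the form found in most tissues. The promoter windows of G6pc and G6pc2 are shown because the first was under the floor and the second well above it. They are RefSeq windows of GRCm38.p6, 250 bases before to 50 after a gene start, both on the + strand, at chr11:101367466-101367765 for G6pc and chr2:69210823-69211122 for the upstream one of 2 G6pc2 starts. Capitals mark TATAAA or ACGTCA on either strand.
G6pc: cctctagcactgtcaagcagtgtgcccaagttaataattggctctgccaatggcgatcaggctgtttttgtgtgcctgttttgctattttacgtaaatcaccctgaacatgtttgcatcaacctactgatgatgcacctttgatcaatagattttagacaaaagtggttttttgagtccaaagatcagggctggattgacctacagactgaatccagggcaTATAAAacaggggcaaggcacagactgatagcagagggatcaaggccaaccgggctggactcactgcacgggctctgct
G6pc2: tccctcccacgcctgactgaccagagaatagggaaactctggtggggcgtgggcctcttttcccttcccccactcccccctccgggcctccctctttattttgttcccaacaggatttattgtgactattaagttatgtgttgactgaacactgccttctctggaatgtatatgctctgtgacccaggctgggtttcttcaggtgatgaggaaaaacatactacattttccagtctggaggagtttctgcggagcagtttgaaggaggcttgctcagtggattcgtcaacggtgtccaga
TATAAA stood at position -29 of the G6pc window, counted for its first base from the gene start as 1. The G6pc2 window held neither motif. Of all 32851 promoter windows, 13.6% held TATAAA on either strand, so a match is common.

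G6pc2 had a signal of 5168.2 in knockout-labelled islets and 6256.5 in control islets with its single probe set. The difference was 1.21-fold lower in knockout-labelled islets. Of the 500 single-gene probe sets closest to it in signal, the central 95% had log2 ratios from -0.91 to 0.29, and G6pc2, at -0.28, lay inside. Ins2 had a log2 ratio of -0.24 and Gcg one of -0.12. G6pc gave 1.6 in knockout-labelled islets and 2.0 in control islets, both far under the floor, so no ratio was formed.

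G6pc3 gave 149.5 in knockout-labelled islets and 124.7 in control islets. That is 1.20-fold higher, a log2 ratio of 0.26 where the 500 nearest probe sets ran from -0.72 to 0.97. Slc37a4, the transporter that carries glucose 6-phosphate into the endoplasmic reticulum to reach these enzymes, gave 293.0 in knockout-labelled islets and 355.3 in control islets. It was 1.21-fold lower, a log2 ratio of -0.28 within a range of -0.53 to 0.78 for its neighbours in signal. All 3 measured genes of this step therefore stayed inside the spread of probe sets of like signal, 2 of them lower and 1 higher.

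Pcx, which encodes pyruvate carboxylase, differed little between the arrays. Its single probe set gave 208.6 in knockout-labelled islets and 199.2 in control islets, a log2 ratio of 0.07. The central 95% of its neighbours in signal ran from -0.54 to 0.71. The annotation lists 2 RefSeq start sites for Pcx, and 1 probe set does not separate transcripts from them.

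Pck2, the mitochondrial PEPCK gene, had 2 probe sets that went opposite ways. The brighter, 1425615_a_at, gave 762.4 in knockout-labelled islets and 716.3 in control islets, a log2 ratio of 0.09. The other, 1452620_at, gave 127.1 in knockout-labelled islets and 182.0 in control islets, 1.43-fold lower and a log2 ratio of -0.52. Of the 500 probe sets nearest the weaker one in signal, 25 were as low or lower. The SD between the pair was 0.43 on the log2 scale, against a median SD of 0.21 among probe sets of 1 gene over 4719 genes. Of these genes, 14.9% had an SD as large as that of Pck2 or larger, so no direction can be given for it.

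Pck1, the cytosolic PEPCK gene and the form best known from liver, kidney and fat, was under the floor in all 3 probe sets. Probe set 1439617_s_at gave 15.0 in knockout-labelled islets and 1.1 in control islets, and 1455209_at gave 4.9 in knockout-labelled and 0.9 in control islets. The third, 1423439_at, went the other way, with 0.6 in knockout-labelled islets and 1.4 in control islets. No ratio was formed from signals this low. Their deposited values were higher in knockout-labelled islets for 2 probe sets and lower for 1. The name ending _s_at marks a probe set that can match transcripts of more than 1 gene. Of the 11 adipocyte markers with a probe set, 5 were under the floor on both arrays, among them Adipoq, named after its values were seen, at 0.6 in knockout-labelled and 12.3 in control islets. The 6 with a ratio had a median log2 ratio of 0.27, with 4 above 0 and 2 below. Pparg gave 102.5 in knockout-labelled and 72.7 in control islets, and Lipe gave 39.4 in knockout-labelled and 32.0 in control islets. The 11 summed to 1024.5 in knockout-labelled and 887.9 in control islets. Most of that was Fabp4, named after its values were seen, at 676.6 in knockout-labelled and 570.2 in control islets. The part of adipocytes in the Pck1 signals was not tested.

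**Figure D2:**
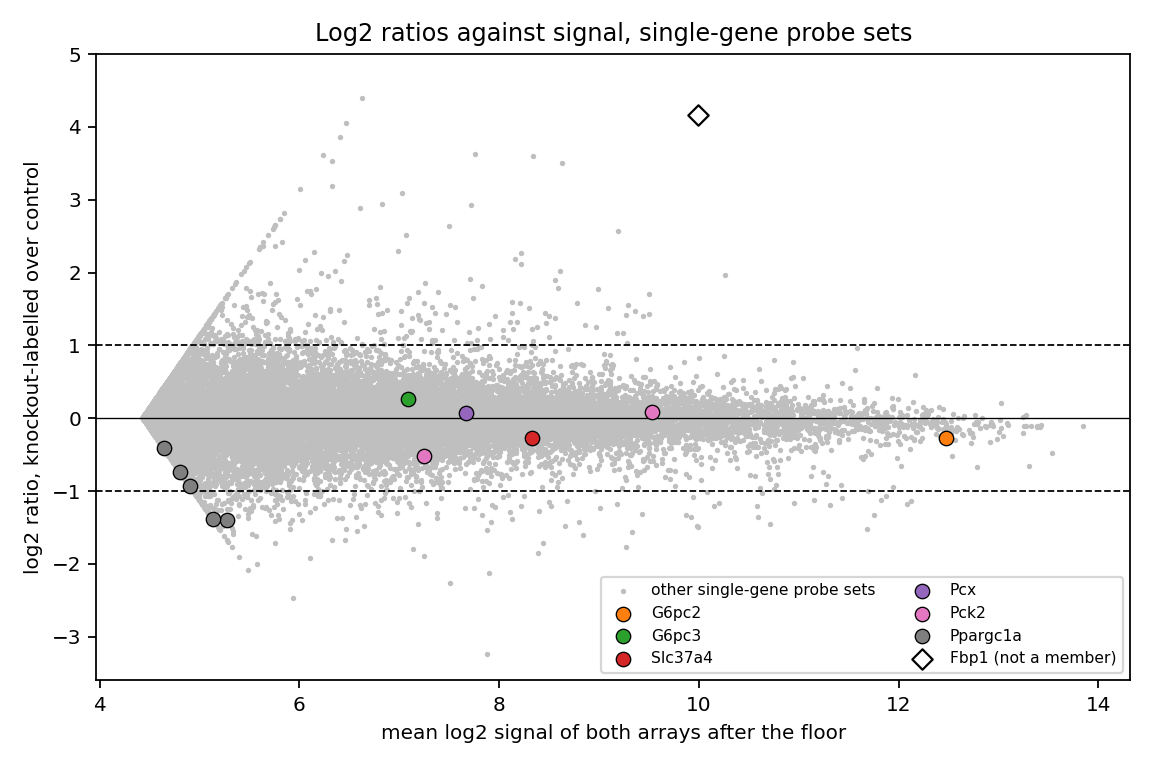
Log2 ratio of knockout-labelled over control (vertical axis) against the mean log2 signal of both arrays after the floor (horizontal axis) for 21257 single-gene probe sets (small points), with the measured members coloured and Fbp1, which is not a member, as a diamond. Dashed lines mark 2-fold. The Ppargc1a points lie on the left edge, which is set by the floor, and the other members lie between the dashed lines.

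Ppargc1a encodes PGC-1 alpha, a coactivator that is induced by cAMP and fasting, switches on Pck1 and G6pc in hepatocytes and promotes mitochondrial gene expression in many tissues. In islets it has been studied as a brake on insulin secretion when present in excess. It was represented by 5 probe sets, all of them lower in knockout-labelled islets. Probe set 1437751_at, the brightest, gave 23.8 in knockout-labelled islets and 63.0 in control islets, 2.65-fold lower and a log2 ratio of -1.40. It was the only one above the floor on both arrays. This put Ppargc1a at rank 35 from the lowest ratio among 11802 genes.

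The other probe sets were above the floor in control islets only, so their ratios are bounds. Probe set 1460336_at gave 17.0 in knockout-labelled islets and 56.7 in control islets, at least 2.61-fold lower. Probe set 1456395_at gave 15.7 in knockout-labelled islets and 41.5 in control islets, at least 1.91-fold lower. For 1434099_at the values were 6.5 in knockout-labelled and 36.2 in control islets, at least 1.67-fold lower. Last, 1434100_x_at gave 12.3 in knockout-labelled and 28.9 in control islets, at least 1.33-fold lower. Passing the floor in control islets only fixes the direction of these 4 ratios, so they do not count as agreement with the brightest probe set. The 1434099_at and 1434100_x_at probe sets were designed from the same source sequence, so the 5 probe sets rest on 4 sequences, and all of them measured the same 2 RNA preparations.

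How often weak probe sets give such ratios was described in the same way as for the other members. Of the 500 single-gene probe sets nearest to 1437751_at in signal, the central 95% had log2 ratios from -1.17 to 1.32, and 7 were as low as it or lower, so it lay just outside. Its knockout-labelled signal of 23.8 was close to the floor of 21.7, which bounds how low a ratio can be. For 1460336_at that range was -1.28 to 1.34, and 4 were as low or lower. Being at the floor in knockout-labelled islets, 1460336_at had the lowest ratio that its mean signal allows. Its place among its neighbours was thus fixed by the floor and adds no support. The ratios of 1456395_at, 1434099_at and 1434100_x_at lay inside the ranges of their own neighbours, which the floor limits in the same way.

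Without a floor, the deposited signals of the 5 probe sets were 2.35-fold to 5.57-fold lower in knockout-labelled islets, with a median of 2.65-fold and an SD of 0.50 on the log2 scale. Without a floor, 12.5% of all single-gene probe sets were 2-fold lower and 12.6% were 2-fold higher. These shares cover probe sets of any signal, also those under the floor on both arrays, and not only signals like those of Ppargc1a. Genes with many probe sets give a closer background, although this count was chosen after the Ppargc1a values were seen. Of 856 genes with 5 or more single-gene probe sets, all probe sets were lower in knockout-labelled islets for 47 (5.49%). All were 2-fold lower for 1 (0.117%), which was Ppargc1a, and all were 2-fold higher for 1 (0.117%). Since the count was made with the Ppargc1a values in view, it describes these arrays and gives no independent support.

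The value for Ppargc1a depended on the treatment of weak signals. With the floor at the 30th percentile all 5 probe sets were 2-fold lower, against a share of 4.59% of all single-gene probe sets. With the floor at the 70th percentile none of them had a ratio. With a pseudocount of 16 and no floor the brightest probe set had a log2 ratio of -0.99, just short of 2-fold, while 1434099_at at -1.21 and 1460336_at at -1.14 passed it. The mean over the 5 probe sets as reported, with bounds counted at their limit, also fell short of it.

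**Figure D3:**
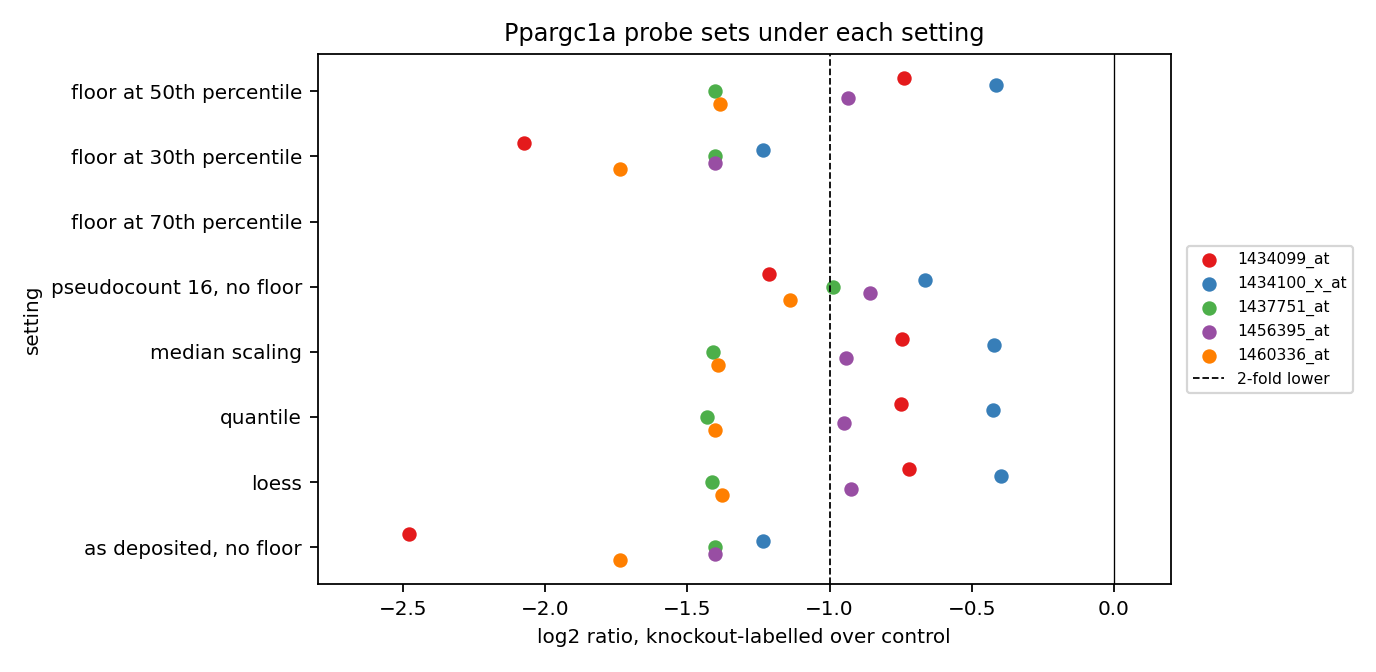
Log2 ratio of knockout-labelled over control (horizontal axis) for the 5 Ppargc1a probe sets (coloured points) under each setting (rows). All points lie below 0, the dashed line marks 2-fold lower, and the row for the floor at the 70th percentile is empty because no probe set passed it.

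Markers of other cells also differed between the arrays, some lower and some higher in knockout-labelled islets. Over all 11802 genes with a ratio, 1.44% were at least 2-fold lower and 1.82% at least 2-fold higher. Exocrine acinar markers were lower: 7 of the 12 with a ratio fell 2-fold or more short of control, and the list had a median log2 ratio of -1.04. Their 14 probe sets with a gene summed to 23060.7 in knockout-labelled and 44646.1 in control islets. Macrophage and dendritic cell markers were higher, with 4 of 12 at least 2-fold higher, a median of 0.56 and sums of 1527.6 in knockout-labelled and 979.8 in control islets. Of the fibroblast and stellate cell markers, 2 of 6 were 2-fold lower, with a median of -0.46 and sums of 217.9 in knockout-labelled and 294.1 in control islets. Dcn, named after its values were seen, was a bound, at 19.8 in knockout-labelled and 61.6 in control islets. Col3a1 gave 22.5 in knockout-labelled islets, close to the floor, and 46.0 in control islets. Beta cell markers had none of 8 at 2-fold and a median of -0.08, and alpha cell markers none of 5 and a median of -0.36. Of the other lists, duct cell markers had a median of -0.32 and 1 of 5 genes 2-fold lower, which was a bound. Endothelial markers had none of 8 at 2-fold and a median of -0.19, and delta and PP cell markers none of 5 and 0.02. The part of these cells in the Ppargc1a difference was not tested. In whole islets, fewer cells of a type and less RNA per cell cannot be told apart.

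The promoter windows of Ppargc1a and Pck1 are shown because Ppargc1a was the member that differed and both genes are textbook targets of the cAMP-responsive factor CREB in liver. The RefSeq windows of GRCm38.p6 are chr5:51567676-51567975 on the - strand for Ppargc1a and chr2:173152823-173153122 on the + strand for Pck1. Capitals mark ACGTCA, the shared core of CREB sites, on either strand.
Ppargc1a: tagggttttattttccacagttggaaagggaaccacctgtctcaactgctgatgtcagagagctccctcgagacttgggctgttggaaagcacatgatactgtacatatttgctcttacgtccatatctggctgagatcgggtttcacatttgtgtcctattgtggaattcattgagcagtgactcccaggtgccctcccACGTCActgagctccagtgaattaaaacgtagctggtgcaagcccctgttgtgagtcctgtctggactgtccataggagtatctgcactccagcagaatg
Pck1: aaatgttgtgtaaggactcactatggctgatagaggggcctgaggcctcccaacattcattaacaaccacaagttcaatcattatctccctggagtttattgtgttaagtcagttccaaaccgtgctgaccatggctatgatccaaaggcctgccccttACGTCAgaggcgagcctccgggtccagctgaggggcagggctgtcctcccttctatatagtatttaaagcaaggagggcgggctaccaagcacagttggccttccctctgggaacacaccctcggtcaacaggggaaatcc
The core began at position -50 in the Ppargc1a window and at -91 in the Pck1 window. It was also in 2 windows of Slc37a4, which overlap and hold the same match, so that 3 of the 8 genes had it. Counted by window, 4 of the 12 windows of the 8 genes held it, the overlapping pair included, and 7.51% of all 32851 windows did. No share by gene was formed, so the count of 3 genes has no background beside it. The full palindrome TGACGTCA, which contains the core, was in none of the 12 windows of the 8 genes and in 1.79% of all. These matches describe letters in the sequence. Ppargc1a has other start sites, and only the listed one was searched. Whether the listed start is the one through which CREB acts in liver was not tested.

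Among 18 measured relatives and partners of PGC-1 alpha, 1 was 2-fold lower (1.44% of all genes) and 0 were 2-fold higher (1.82% of all genes). The median log2 ratio was 0.03. Ppargc1b, which encodes the close relative PGC-1 beta, gave 33.6 in knockout-labelled and 24.1 in control islets, and Esrra, the nuclear receptor through which PGC-1 alpha acts on mitochondrial genes, gave 124.0 in knockout-labelled and 120.0 in control islets. Tfam, which maintains mitochondrial DNA, gave 291.9 in knockout-labelled and 265.9 in control islets. Ppargc1b, Esrra and Tfam were chosen after their values were seen. The gene that was lower was Esrrb, an orphan nuclear receptor gene, at 26.6 in knockout-labelled and 80.4 in control islets, 3.02-fold lower in its single measured probe set. Its knockout-labelled signal was close to the floor of 21.7.

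Of 30 measured genes for factors that control gluconeogenic genes in liver, none reached 2-fold (3.26% of all genes). Of the 30, 12 were above 0 and 18 below, and the median was -0.04. The widest ratios belonged to 2 orphan nuclear receptor genes that cAMP induces. Nr4a1 gave 1365.5 in knockout-labelled and 769.6 in control islets, a log2 ratio of 0.83. Nr4a2 gave 506.4 in knockout-labelled and 872.7 in control islets, a log2 ratio of -0.79, with its 4 other measured probe sets from -0.81 to -0.29. The pair thus went opposite ways. Foxo1, the insulin-restrained activator of G6pc and Pck1, and Creb1, the gene of CREB itself, had log2 ratios of -0.03 and -0.02 in their brightest probe sets. The other measured probe sets ran from -0.53 to -0.11 for Foxo1 and from -0.08 to 0.78 for Creb1. Both genes were named after their values were seen.

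Around the glucose-6-phosphatase step, 2 of 16 measured genes were 2-fold higher (1.82% of all genes) and 1 was 2-fold lower (1.44% of all genes). The median was 0.00. Fbp1, the liver form of fructose-1,6-bisphosphatase and a gluconeogenic step upstream of glucose-6-phosphatase, gave 4332.6 in knockout-labelled and 241.0 in control islets, an 18.0-fold higher signal. The members on both sides of that step, G6pc2 and Slc37a4 above it and Pcx and Pck2 below it, showed no ratio of that kind. Hk2, a hexokinase gene, gave 28.0 in knockout-labelled and 56.1 in control islets, 2.00-fold lower. Hk3, another hexokinase gene and named after its value was seen, was at least 2.43-fold higher, at 52.4 in knockout-labelled and 19.4 in control islets, with another probe set at -0.22. H6pd, the enzyme that uses glucose 6-phosphate inside the endoplasmic reticulum and shares the Slc37a4 pool, gave 90.2 in knockout-labelled and 73.1 in control islets and was named after its values were seen.

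Genes of pyruvate cycling and its carriers, the surroundings of Pcx, had none of 24 at 2-fold (3.26% of all genes). Their median was -0.13, with 19 below 0 and 5 above, beside 5879 below and 5893 above among 11802 genes. Pdk1, a kinase gene that shuts pyruvate dehydrogenase and so leaves pyruvate to pyruvate carboxylase, gave 169.1 in knockout-labelled and 289.4 in control islets, a log2 ratio of -0.78. The 2 other measured probe sets of Pdk1 had log2 ratios of -0.92 and -0.04. Ldha, a lactate dehydrogenase gene, gave 571.1 in knockout-labelled and 844.9 in control islets, a log2 ratio of -0.57. Pyruvate carboxylase carries biotin. Among 8 measured genes for biotin enzymes and biotin handling, Mccc2, a subunit of the leucine breakdown carboxylase, was 2.79-fold higher, at 74.3 in knockout-labelled and 26.6 in control islets. Its other 2 measured probe sets had log2 ratios of -0.23 and 0.23. The biotin list had 1 of 8 genes 2-fold higher (1.82% of all genes), none 2-fold lower (1.44%) and a median of 0.04.

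Around Pck2, none of the measured genes of 2 lists reached 2-fold, where 3.26% of all genes did. Mitochondrial PEPCK draws on GTP from the succinyl-CoA ligase encoded by Suclg2, whose signal was 498.1 in knockout-labelled and 347.6 in control islets, a log2 ratio of 0.52. Its other probe set gave 0.54. Nme6, a nucleoside diphosphate kinase gene, had a log2 ratio of 0.20. The list had none of 4 genes at 2-fold and a median of 0.09. Pck2 is a target of the stress factor ATF4, and of 20 measured ATF4 targets none reached 2-fold. Their median was 0.02, with Ddit4 at 285.5 in knockout-labelled and 479.4 in control islets (log2 ratio -0.75) and the amino acid transporter subunit gene Slc3a2 at 3281.2 in knockout-labelled and 2344.8 in control islets (0.48).

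Over the 7 pathway lists together, 5 of 120 measured genes (4.17%) were at least 2-fold higher or lower, beside 385 of 11802 genes (3.26%). The shares are near each other. The lists were chosen with earlier results of these arrays known, and Fbp1 was among their genes.

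**Figure D4:**
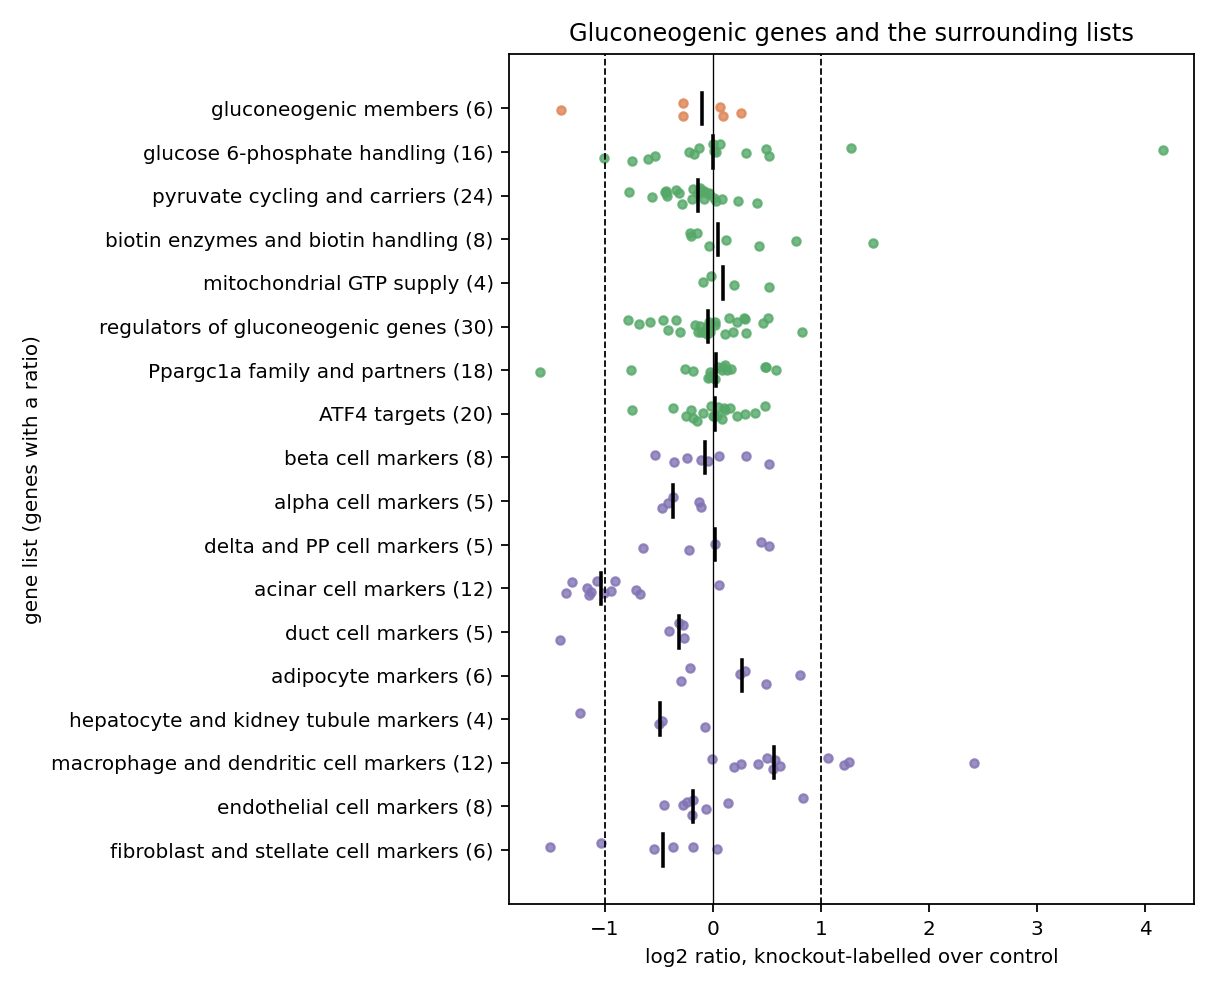
Log2 ratio of knockout-labelled over control (horizontal axis) for each measured gene of the members and of the 17 lists (rows, with the number of genes that had a ratio), 1 point a gene by its brightest probe set, with bounds at their limit and black bars for the list medians. Dashed lines mark 2-fold. The pathway lists centre near 0, from -0.13 to 0.09, whereas acinar markers centre at -1.04 and macrophage markers at 0.56.

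Markers of liver and kidney, the organs that use G6pc and Pck1 most, were mostly weak. Of 12 genes with a probe set, 8 were under the floor on both arrays, among them Alb (albumin), at 0.8 in knockout-labelled and 9.5 in control islets, and Umod, a kidney tubule gene, at 11.4 in knockout-labelled and 1.4 in control islets. Alb and Umod were chosen after their values were seen. The 4 genes with a ratio were all below 0, with a median log2 ratio of -0.49. Of these, 1 was 2-fold lower (1.44% of all genes). It was Fgb, a fibrinogen gene, at 33.0 in knockout-labelled and 77.3 in control islets. The 12 genes summed to 10552.4 in knockout-labelled and 14593.3 in control islets. Most of that was Ttr, which alpha cells also express, at 10091.1 in knockout-labelled and 14020.9 in control islets.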

How the data were processed

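RNA of pancreatic islets was measured on 1 array per genotype. The table deposited by the authors holds a linear intensity per probe set. Per the submitters' processing notes the authors used MAS5, which summarises perfect match and mismatch probes. Its version, scaling target, background step and detection calls are not given in the sources used here. With the outer 2% trimmed off, the mean signal was 99.3 on either array, and the signals were used without further normalization. The number of arrays limits the precision.

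Platform annotation, which can be dated, gave 34945 probe sets a single gene, 932 more than 1 gene and 9160 no name. The array's 50th percentile replaced any signal under it, and log2 ratios were then formed as knockout-labelled over control. A gene was its probe set with the highest mean log2 signal. A ratio of 2-fold was counted. No test was run. As a description of spread, each member probe set was set beside the 500 single-gene probe sets nearest in signal.

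The members and 17 lists (10 of cell markers, 7 of pathways) were chosen with earlier results of these data known. The rule for names took all members, Zbtb20, Fbp1, Ins2 and Gcg, and from each list the genes past 2-fold on both arrays, or else the 2 with the widest ratios. With 2 arrays no likeness of pattern could be ranked. Marker lists are given for cells that bear on a result. Python 3.11.15, numpy 2.4.6, pandas 2.3.3 and statsmodels 0.14.6 were used, and the code was tested on simulated data. The simulated differences were set in probe sets well above the floor, so that check did not cover signals as weak as those of Ppargc1a. Alternatives were other floors, a pseudocount, other scalings, other fold limits and the mean over probe sets.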

Additional observations from a re-analysis of the deposited data

How the results depend on the processing

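No paired analysis was possible because each genotype had 1 array, so no replicate could be left out either. The count of member genes at least 2-fold lower was 1 as reported and 0 for a 70th percentile floor, a pseudocount of 16, a 3-fold limit and a gene's ratio averaged across its probe sets. The share of all genes was 1.44% as reported and, in the same order, 0.783%, 1.1%, 0.144% and 1.16%. The count of member probe sets at least 2-fold lower was 2 as reported, 5 for a 30th percentile floor, 0 for a 70th percentile floor, 4 at a 1.5-fold limit, 0 at a 3-fold limit and 6 with the signals as deposited. The share of all single-gene probe sets was, in the same order, 1.29%, 4.59%, 0.686%, 6.36%, 0.113% and 12.5%. The background thus rose in the settings where the member count rose. The setting with the signals as deposited was chosen after seeing the data. Its 6 lower probe sets were the 5 of Ppargc1a and Pck1 probe set 1423439_at, which was under the floor on both arrays. It also counted 2 probe sets and 1 gene as at least 2-fold higher, all of Pck1 and under the floor. In the other alternatives the counts were within 1.5 times those reported. Of 72 values for single member probe sets, 60 moved by less than 0.21 on the log2 scale. That is the median SD among probe sets of a gene. The 12 that moved more were all of Ppargc1a. Part of this was fixed in advance. The 6 enzyme and transporter probe sets lay above every floor used, so other floors and the signals as deposited left their values unchanged. Median scaling shifted every member ratio by the same small amount. At the 70th percentile floor the 5 Ppargc1a probe sets had no ratio and were not counted. None changed direction, but a floor or pseudocount cannot reverse a ratio, so this was open only to the scalings. Of 118 list medians, 3 moved by more than 0.21. Alpha cell markers had a median of -0.12 for a 70th percentile floor. Fibroblast and stellate cell markers had -0.20 with the pseudocount, and liver and kidney markers -0.14 for a 30th percentile floor. Scaling by the median, by quantiles or by loess left the median over all genes within 0.01 of its reported value. Among single-gene probe sets, 274 were 2-fold lower and 400 higher as reported, 1308 and 1387 for a 30th percentile floor, 90 and 138 for a 70th percentile floor. The Ppargc1a signals lie near the array medians, which limits what they can show.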
